A study of Mus musculus with 4 samples.

Results

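The mouse mitochondrial genome carries 37 genes, and all 37 rows assigned to chromosome MT were taken from a count table of 56239 genes. They comprise 13 messenger genes, 2 ribosomal RNA (rRNA) genes and 22 transfer RNA (tRNA) genes, each with a symbol that starts with mt-. RNA was sequenced from sorted double-positive (DP) thymocytes, the CD4+CD8+ stage, of C57BL/6 mice. WT animals carried floxed Chaf1b alleles on both chromosomes and no Cre, and KO animals carried the same floxed alleles with Cd4-cre, a transgene that expresses Cre recombinase under Cd4 control in thymocytes. Each genotype had 2 libraries, called WT1, WT2, KO1 and KO2 here by their replicate number. The labels give neither the animals' age nor how many animals made a library, so a p-value here reflects only how far the libraries spread. Chaf1b encodes a subunit of chromatin assembly factor 1, which places histones on newly copied DNA, and the series asks what its loss changes before invariant natural killer T cells arise from DP thymocytes.

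Mitochondrial DNA is a small circle transcribed from both strands into long precursors. Most messengers and both rRNAs are separated by tRNAs, whose removal releases them, and most messengers then receive short poly(A) tails. The messengers encode core subunits of respiratory complexes I, III and IV and of ATP synthase (complex V), while the other subunits, and every factor that transcribes, matures and translates the mitochondrial RNAs, come from the nucleus.

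Library totals ran from 21068760 to 27369874 counts. The targeted gene had 660 and 900 counts in the WT and 276 and 320 counts in the KO libraries, taken over all of its exons. In both genotypes replicate 1 was female and replicate 2 male: Xist had 47368, 8, 47301 and 12 counts in WT1, WT2, KO1 and KO2. A second fit, the sex-term fit, therefore takes the replicate number as a covariate and is given beside the test without one. In it, sex and any batch that a number shares cannot be told apart. With so few libraries this fit leaves little spread within a gene to measure. Its p-values therefore rest largely on variance pooled over all genes. KO1 stood apart from the other libraries. Without KO1 the edgeR test called 171 genes higher and 349 lower, and without KO2 it called 2518 higher and 2630 lower. All 12 DP markers were detected, with summed levels of 17283 to 17598 CPM (counts scaled to library size) in WT and 18344 to 22415 CPM in KO. Within both pairs 7 of the 12 were higher in KO, beside 35.5% of all tested genes, and 4 were lower. In the sex-term fit, which called 2.2% of all tested genes lower, Cd1d1 was called lower. It stood at 104, 113, 60.4 and 80.6 CPM in WT1, WT2, KO1 and KO2.

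Mitochondrial transcripts made up a larger share of both KO libraries than of either WT library. They took 1.33% of all counts in WT1 (95% exact interval 1.330 to 1.339), 1.45% in WT2 (1.446 to 1.455), 3.30% in KO1 (3.293 to 3.307) and 2.03% in KO2 (2.024 to 2.036). The groups did not overlap, but KO1 lay farther from KO2 than KO2 lay from WT2. The means were 1.39 ± 0.0818% in WT and 2.66 ± 0.898% in KO (SD, n = 2). KO1 held 2.47 times the share of WT1 (female pair), and KO2 1.40 times that of WT2 (male pair). An exact two-sided permutation test over the 4 libraries gave p = 0.333, the smallest value that 2 against 2 libraries allow. The intervals cover counting error only. In bulk libraries of this kind, more cells with much mitochondrial RNA and more of it in each cell cannot be told apart.

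Each RNA class showed the same order of libraries at the top. The 13 messengers held 1.23% of all counts in WT1, 1.36% in WT2, 2.93% in KO1 and 1.89% in KO2. The 2 rRNAs held 0.0990%, 0.0872%, 0.357% and 0.128% in the same order, and the 22 tRNA genes 0.0052%, 0.0058%, 0.0151% and 0.0079%. KO1 was highest and KO2 second in every class. The rRNA share stood apart most in KO1, at 3.61 times WT1, whereas KO2 held 1.47 times the rRNA share of WT2. For these 3 classes too the exact permutation p was 0.333.

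**Figure D1:**
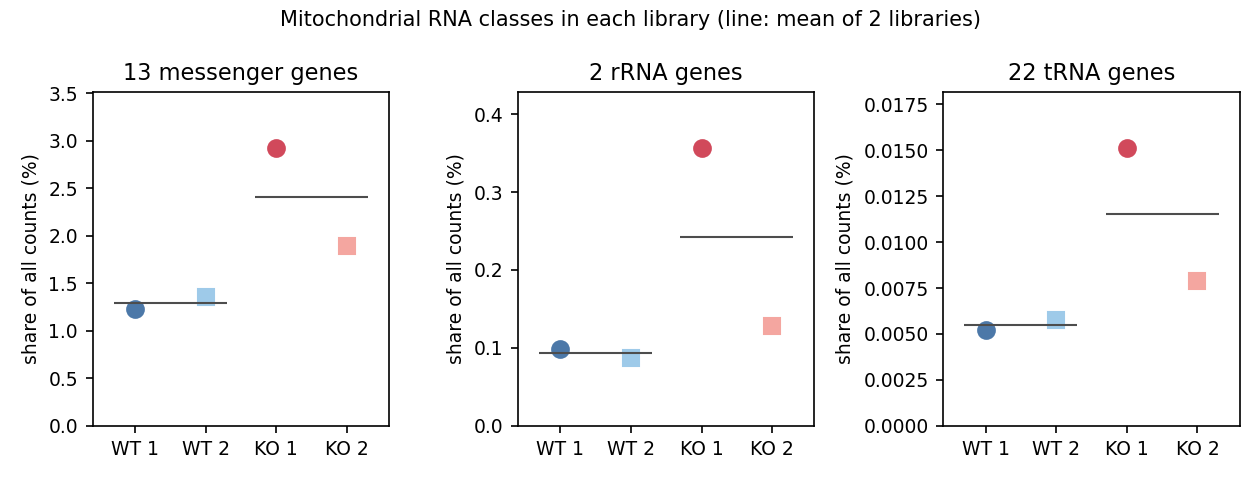
Share of all counts (%, linear axes that start at 0) taken by the 13 messengers, 2 rRNAs and 22 tRNA genes in each library; points are libraries and lines are means of 2. Messengers took 1.23% and 1.36% of the WT libraries, 2.93% of KO1 and 1.89% of KO2, and KO1 lies farthest from the others in all 3 panels.

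Of the 37 genes, 29 passed the filter on low counts: all 13 messengers, both rRNAs and 14 tRNA genes. Across these 29 genes the log2 fold change in the test without a covariate was above 0 for every gene, from 0.69 for mt-Tl1 to 3.30 for mt-Tr, with a median of 1.23, beside a median of -0.0026 over the 15070 genes tested. None of the 29 passed an adjusted p of 0.05 in that edgeR test, in which 0.00664% of all tested genes were called higher and 0.0% lower. Their adjusted p-values ran from 0.267 to 0.479. At an unadjusted p under 0.05 the count was 20, beside 16.8% of all tested genes in either direction. DESeq2 without a covariate called 13 of them higher and 0 lower, and gave no adjusted p for 8 (1.85% of its genes were called higher and 2.73% lower).

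With the sex term, edgeR called 11 of the 29 higher in KO and 0 lower, where 1.01% of all tested genes were called higher and 2.2% lower. The 11 were the messengers mt-Co2, mt-Atp6, mt-Co3, mt-Nd3, mt-Nd4 and mt-Nd6, both rRNAs, and the tRNA genes mt-Tn, mt-Tc and mt-Tp. The median log2 fold change of the 29 was 1.16 in this fit. These values depended on the KO libraries. Without KO1 the test without a covariate called 12 of the 29 with a median log2 fold change of 0.63 (1.09% of all tested genes were called higher and 2.22% lower), and without KO2 it called 24 with a median of 1.57 (15.8% and 16.5%). Without the filter on low counts it called 20 (2.41% and 3.22%). With library totals in place of TMM scaling, the sex-term fit called only 1, mt-Nd4, so the other calls of that fit were lost. The share of all tested genes called in that setting was not computed, so the loss cannot be set beside that of all genes.

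Both KO libraries lay above both WT libraries for 27 of the 29 genes, where 27.9% of all tested genes did so. The exceptions were mt-Tl1 and mt-Th. The female pair differed by a median of 1.76 on the log2 CPM scale, with all 29 genes higher in KO1 than in WT1. In the male pair the median was 0.55, with 27 of 29 higher in KO2 than in WT2. The difference was larger in the female pair for all 29 genes, and with 1 library per genotype and sex that contrast has no test. Of all tested genes, 35.5% lay higher in KO within both pairs.

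**Figure D2:**
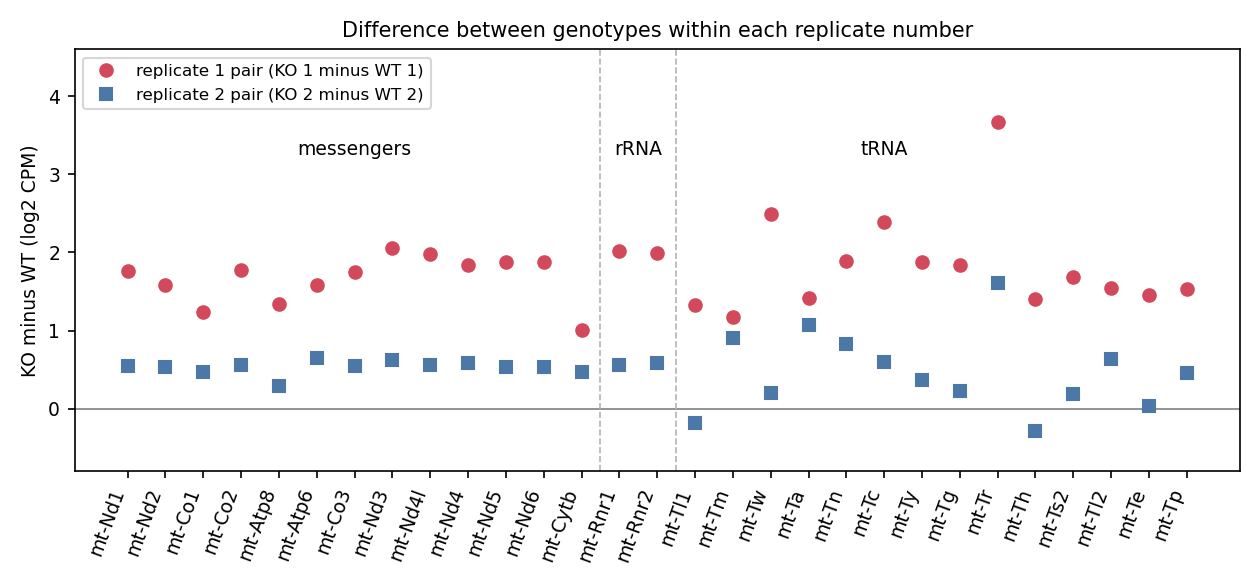
Difference between KO and WT (log2 CPM) for the 29 genes that passed the filter, within replicate 1 (circles) and replicate 2 (squares); each point is 1 library minus 1 library. All circles lie above 0, with a median of 1.76, and all squares but those of mt-Tl1 and mt-Th lie above 0, with a median of 0.55.

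Complex I takes electrons from NADH, and 7 of its core membrane subunits are encoded by mt-Nd1, mt-Nd2, mt-Nd3, mt-Nd4, mt-Nd4l, mt-Nd5 and mt-Nd6. Together these 7 messengers held 0.396% and 0.436% of the counts of WT1 and WT2, and 1.23% and 0.632% of those of KO1 and KO2. They were the complex with the highest KO1 to WT1 ratio, 3.11, while their KO2 to WT2 ratio was 1.45. Per length, mt-Nd1 was the most abundant of them, at 1066, 1184, 3617 and 1732 FPKM (fragments per kilobase of gene, scaled to library size) in WT1, WT2, KO1 and KO2. Its log2 fold change was 1.16 ± 0.30 (SE) in the sex-term fit, with an edgeR adjusted p of 0.0544. Each SE of an edgeR fit here was derived from its F value and does not measure the spread between the pairs.

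The long complex I messengers lay close to one another. mt-Nd2 stood at 666 and 690 FPKM in WT and at 1995 and 999.96 FPKM in KO1 and KO2. mt-Nd5, the longest, stood at 607, 666, 2227 and 961 FPKM, and mt-Nd4 at 611, 661, 2184 and 993 FPKM. In WT the libraries of mt-Nd2, mt-Nd5 and mt-Nd4 overlapped in level from one gene to the next. Of these, mt-Nd4 passed the threshold of the sex-term fit with a log2 fold change of 1.21 ± 0.29 (SE) and an edgeR adjusted p of 0.0471, while mt-Nd2 and mt-Nd5 had adjusted p-values of 0.0508 and 0.0584. With the sex term and scaling over nuclear genes or DESeq2 size factors, mt-Nd4 no longer passed (0.0511 and 0.0514). With the sex term and library totals it was the only mitochondrial gene called (edgeR adjusted p = 0.0480). DESeq2 without a covariate called mt-Nd2 (adjusted p = 0.0029) but neither mt-Nd4 (0.143) nor mt-Nd5 (0.172).

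mt-Nd6 is the only messenger read from the opposite (light) strand. It stood at 392, 417, 1440 and 607 FPKM in WT1, WT2, KO1 and KO2, so that KO1 was far above the other libraries and KO2 above both WT libraries. It rose in the sex-term fit by 1.21 ± 0.26 on the log2 scale (SE, edgeR adjusted p = 0.0363). The libraries did not mark strand, so reads over mt-Nd6 that came from the opposite strand cannot be told apart from its own.

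The short complex I messengers mt-Nd3 and mt-Nd4l had much lower levels per length. mt-Nd3 stood at 19.9, 26.3, 83.5 and 40.6 FPKM, and its log2 fold change without a covariate, 1.42, was the highest of the 13 messengers. With the sex term it was 1.35 ± 0.29 (SE, edgeR adjusted p = 0.0338). mt-Nd4l stood at 11.4, 13.4, 45.7 and 19.9 FPKM, with an adjusted p of 0.0510. Its frame ends inside that of mt-Nd4, and the overlap of 7 bases (chromosome MT, 10167 to 10173, plus strand) is shown in capitals because it holds both the start codon of mt-Nd4 and the stop codon of mt-Nd4l.
mt-Nd4l/mt-Nd4: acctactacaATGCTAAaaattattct

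Complex III passes electrons to cytochrome c, and mt-Cytb, cytochrome b, is its single mitochondrial subunit. mt-Cytb stood at 2143, 2355, 4303 and 3271 FPKM in WT1, WT2, KO1 and KO2, and the ratio of KO1 to KO2 was smaller than for any complex I messenger. Its log2 fold change was the lowest of the 13 messengers, at 0.75 ± 0.20 (SE) without a covariate and 0.74 ± 0.27 with the sex term, where the edgeR adjusted p was 0.149. KO1 exceeded WT1 by 1.01 and KO2 exceeded WT2 by 0.47 in log2 CPM.

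Complex IV reduces oxygen, and its catalytic core is encoded by mt-Co1, mt-Co2 and mt-Co3. mt-Co1 had the highest level per length of all 15 messenger and rRNA genes in both genotypes, at 3669, 3971, 8650 and 5479 FPKM. It differed by 0.85 ± 0.34 on the log2 scale in the sex-term fit (SE, edgeR adjusted p = 0.170). mt-Co2 rose in that fit from 39.6 and 43.6 FPKM in WT to 136 and 64.2 FPKM in KO1 and KO2 (log2 fold change 1.17 ± 0.23, SE, edgeR adjusted p = 0.0282). mt-Co3 rose from 12.96 and 16.9 FPKM to 43.9 and 24.8 FPKM (1.15 ± 0.25, adjusted p = 0.0358).

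ATP synthase uses the proton gradient to make ATP, and mt-Atp6 and mt-Atp8 encode parts of its membrane sector. mt-Atp6 stood at 14.1, 17.1, 42.7 and 26.9 FPKM in WT1, WT2, KO1 and KO2, and rose in the sex-term fit by 1.12 ± 0.23 on the log2 scale (SE, edgeR adjusted p = 0.0322). mt-Atp8, with 28, 36, 71 and 34 counts, was the least counted messenger. In counts KO2 lay between the WT libraries, and after scaling the KO libraries were above both of them, at 5.79, 6.22, 15.3 and 7.70 FPKM (adjusted p = 0.240). The frames of both genes overlap by 43 bases (chromosome MT, 7927 to 7969, plus strand), from the start codon of mt-Atp6 to the stop codon of mt-Atp8, and fragments that touch both genes were not assigned. The overlap is shown because it takes up part of what is countable for the short mt-Atp8.
mt-Atp8/mt-Atp6: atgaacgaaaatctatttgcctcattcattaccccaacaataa

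The messengers mt-Co3, mt-Nd4 and mt-Cytb have no complete stop codon in the DNA. Each reading frame closes with a single T, capitalized in the last 30 bases shown here, and the poly(A) tail is known to complete the stop codon in such RNAs. The 3 are shown because selection with poly-T beads draws on those tails.
mt-Co3: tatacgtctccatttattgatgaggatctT
mt-Nd4: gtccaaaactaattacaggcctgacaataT
mt-Cytb: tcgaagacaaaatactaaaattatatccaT
All of the other 10 messengers end in TAA or TAG. In the order of WT levels per length, mt-Cytb ranked 2, mt-Nd4 ranked 6 and mt-Co3 ranked 13 of 15.

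The spread of levels within a single genome was wide. The WT means ran from 3820 FPKM for mt-Co1 to 6.00 FPKM for mt-Atp8, by way of mt-Cytb (2249), mt-Nd1 (1125), mt-Nd2 (678), mt-Nd5 (637), mt-Nd4 (636), mt-Nd6 (405), mt-Rnr1 (380), mt-Rnr2 (343), mt-Co2 (41.6), mt-Nd3 (23.1), mt-Atp6 (15.6), mt-Co3 (14.9) and mt-Nd4l (12.4). Neighbours in this order with overlapping WT libraries were mt-Nd2 with mt-Nd5, mt-Nd5 with mt-Nd4, mt-Nd6 with mt-Rnr1, mt-Rnr1 with mt-Rnr2, mt-Atp6 with mt-Co3, and mt-Co3 with mt-Nd4l. In KO, whose libraries differ more, the libraries of neighbouring genes stayed separate only between mt-Co1 and mt-Cytb, between mt-Rnr2 and mt-Co2, and between mt-Nd4l and mt-Atp8. The order in KO differed among mt-Nd5, mt-Nd4, mt-Nd2, mt-Rnr1 and mt-Nd6, neighbours that overlapped there.

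The 6 messengers at the foot of this order, mt-Co2, mt-Atp8, mt-Atp6, mt-Co3, mt-Nd3 and mt-Nd4l, lie side by side. They hold 26.3% of the messenger bases and took 0.485%, 0.528%, 0.635% and 0.560% of the messenger counts of WT1, WT2, KO1 and KO2. A stretch of the mitochondrial genome that contains them whole (chromosome MT, 6381 to 11042) is matched by 7 annotated pseudogenes on nuclear chromosome 1 (24611535 to 24616197, minus strand, GRCm38). From Gm29216, a copy of the 3′ end of mt-Co1, the copies run through Gm28661 (mt-Co2), Gm10925 (mt-Atp6), Gm28437 (mt-Co3), Gm28438 (mt-Nd3) and Gm10222 (mt-Nd4l) to Gm28439, the first 876 bases of mt-Nd4. The spacing between neighbouring copies is that of the mitochondrial genes to the base in 5 of 6 gaps, and in the gap that holds mt-Tr it is 74 bases in place of 73. mt-Atp8 has no annotated copy of its own, and its place corresponds to the gap of 233 bases between Gm28661 and Gm10925.

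In 5 of these copies the sequence differs from the mitochondrial gene at 0 bases. The Gm28438 copy differs from mt-Nd3 at 1 of 345 bases, T3C, and the aligned part of Gm29216 differs from mt-Co1 by A1066T, with positions counted from 1 at the first base of the mitochondrial gene and the mitochondrial base given first. Another 5 differences lie at the edge of Gm29216, outside the alignment. The 31 bases around each are shown, with the differing base in capitals, because reads from gene and copy differ there.
mt-Nd3: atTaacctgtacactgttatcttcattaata
Gm28438: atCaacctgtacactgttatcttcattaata
mt-Co1: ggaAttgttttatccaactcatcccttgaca
Gm29216: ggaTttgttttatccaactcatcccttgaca
Every stretch of 50 bases of mt-Co2 occurs exactly in an annotated nuclear transcript. The same holds for 99.5% of such windows in mt-Atp6, 99.9% in mt-Co3, 97.99% in mt-Nd3, 98.8% in mt-Nd4l, 62.2% in mt-Nd4 and 51.1% in mt-Co1. It holds for 8.19% in mt-Nd2, 7.61% in mt-Nd5 and 1.04% in mt-Rnr2, and for 0 windows of mt-Nd1, mt-Nd6, mt-Cytb, mt-Rnr1 and mt-Atp8.

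The counting command had no option for fragments that map to several places. The levels of mt-Co2, mt-Atp6, mt-Co3, mt-Nd3, mt-Nd4l, mt-Nd4 and mt-Co1 are therefore uncertain, and their order against the other messengers cannot be taken as an order of RNA abundance. For mt-Atp8 no shared window was found in annotated transcripts. Its place on chromosome 1, the gap of 233 bases between Gm28661 and Gm10925, is not annotated and was not searched. The level of mt-Atp8 is therefore uncertain too. Reads could also be placed on the nuclear copies: the 7 pseudogenes on chromosome 1 together held 897, 1290, 2683 and 1404 counts in WT1, WT2, KO1 and KO2, beside 1384, 1962, 4593 and 2234 counts on the 6 messengers. Of the 7, the sex-term fit called 4 higher in KO: Gm28439, Gm10222, Gm28437 and Gm10925, copies of mt-Nd4, mt-Nd4l, mt-Co3 and mt-Atp6, beside 1.01% of all tested genes. Gm28437, for example, held 150, 176, 401 and 227 counts. On chromosome 2, Gm13340 (a copy of mt-Co1 at 97.6% identity) held 67, 63, 145 and 98 counts and Gm13341 (mt-Co2, 95.9%) 32, 34, 67 and 39, and neither was called. Whether these counts came from mitochondrial or nuclear RNA was not tested.

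**Figure D3:**
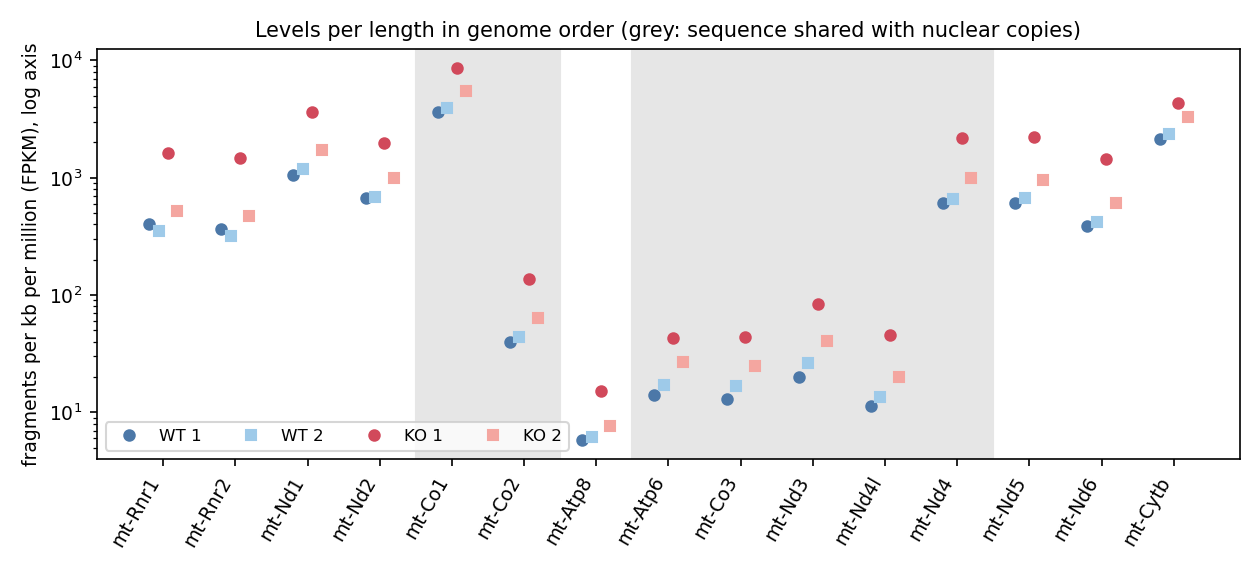
Level per length (FPKM, log axis) of the 13 messengers and 2 rRNAs in each library, in genome order; grey marks genes that share sequence with the nuclear copies on chromosome 1. The WT means run from 3820 FPKM for mt-Co1 to 6.00 FPKM for mt-Atp8, and mt-Co2 to mt-Nd4l form a low block of 6 neighbours in all 4 libraries.

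The 2 rRNAs are the RNA core of the mitochondrial ribosome, mt-Rnr1 in its small and mt-Rnr2 in its large subunit. mt-Rnr1 stood at 405, 355, 1639 and 522 FPKM in WT1, WT2, KO1 and KO2, and mt-Rnr2 at 368, 318, 1466 and 475 FPKM. KO2 lay above both WT libraries and KO1 far above KO2. Both rose in the sex-term fit, mt-Rnr1 by 1.29 ± 0.30 (SE, edgeR adjusted p = 0.0411) and mt-Rnr2 by 1.29 ± 0.30 (adjusted p = 0.0425) on the log2 scale. DESeq2 called neither, with adjusted p-values of 0.242 and 0.238. The 2 rRNAs kept their balance: the ratio of mt-Rnr1 to mt-Rnr2 counts was 0.664, 0.675, 0.675 and 0.662 in WT1, WT2, KO1 and KO2. Poly-T selection removes most rRNA, so these counts measure what passed the selection and not the rRNA of the cells.

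tRNA genes gave few counts. Of the 22, 8 failed the filter, with at most 9 counts in any library, and mt-Tf and mt-Ts1 had 0 counts in all 4 libraries, which allows up to 3 counts in each. tRNA genes are shorter than the sequenced fragments, so a count on one can come from a fragment that reaches into unannotated sequence beside it. Fragments that also touched another gene were left out, so the counts depend on how close the neighbouring genes lie. They therefore give no order of tRNA abundance. Grouped by the annotated strand of the gene, the 14 heavy-strand tRNA genes held 222, 345, 686 and 331 counts in WT1, WT2, KO1 and KO2. The 8 light-strand genes held 993, 1230, 3054 and 1328 counts, most of them on mt-Tp. The libraries did not mark strand, so counts on genes of either group can include RNA of the opposite strand.

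The 3 tRNA genes called in the sex-term fit are annotated on the light strand. The heavy-strand gene mt-Tl2, with 85, 118, 240 and 141 counts, had an edgeR adjusted p of 0.0528 there, and DESeq2 called it (adjusted p = 0.0400) beside these 3. A difference between strands was not tested. mt-Tp, which reads proline codons and is the last annotated gene before the control region, held 742, 904, 2058 and 949 counts (log2 fold change 1.00 ± 0.21, SE, edgeR adjusted p = 0.0336). mt-Tn, for asparagine, held 137, 123, 492 and 168 counts (1.39 ± 0.27, adjusted p = 0.0274), and mt-Tc, for cysteine, 71, 105, 364 and 122 counts (1.52 ± 0.36, adjusted p = 0.0451). mt-Tn and mt-Tc flank 32 bases without annotation, where the origin of light-strand replication is known to lie. The anticodons are in capitals in the sequences of the 3, which are shown as the tRNA genes called in that fit, all on the minus strand of chromosome MT, with mt-Tr added as the gene with the highest fitted fold change.
mt-Tn (5089 to 5159): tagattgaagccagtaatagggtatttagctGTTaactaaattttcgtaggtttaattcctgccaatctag
mt-Tc (5192 to 5257): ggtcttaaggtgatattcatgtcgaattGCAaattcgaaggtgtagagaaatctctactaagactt
mt-Tp (15356 to 15422): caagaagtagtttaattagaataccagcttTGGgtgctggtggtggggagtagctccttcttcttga
mt-Tr (plus strand, 9808 to 9875): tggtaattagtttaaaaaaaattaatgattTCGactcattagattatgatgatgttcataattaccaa

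mt-Tr, for arginine, held 0, 4, 22 and 13 counts and had a fitted log2 fold change of 3.28 ± 0.91 with the sex term (SE, edgeR adjusted p = 0.0697). Without a covariate its value of 3.30 became 2.44 without WT1 and 7.17 without WT2, which leaves a WT library at 0 counts, so its size is not determined. It lies in the stretch matched on chromosome 1, as do mt-Ts1, mt-Td, mt-Tk and mt-Tg, and these 5 tRNA genes together held 6, 16, 45 and 24 counts. mt-Tl1, which follows mt-Rnr2, held 45, 69, 111 and 46 counts, and mt-Th 38, 42, 99 and 26. In both, KO1 was the highest library and KO2 did not lie above both WT libraries. The other tested tRNA genes, mt-Tm, mt-Tw, mt-Ta, mt-Ty, mt-Tg, mt-Ts2, mt-Tl2 and mt-Te, were higher in both KO libraries than in both WT libraries after scaling, with log2 fold changes from 0.80 for mt-Te to 1.58 for mt-Ta without a covariate, and none passed either edgeR fit.

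The balance among the mitochondrial transcripts differed in KO1 and hardly in KO2. mt-Co1 made up 47.1%, 46.9%, 42.0% and 45.9% of messenger counts in WT1, WT2, KO1 and KO2, and mt-Cytb 20.4%, 20.6%, 15.5% and 20.3%. The share of mt-Nd5 was 9.19%, 9.28%, 12.8% and 9.51%, and that of mt-Nd1 8.47%, 8.65%, 10.9% and 8.99%. KO1 had less of its messenger pool in mt-Co1 and mt-Cytb and more in complex I than any other library. KO2 lay on the same side of WT in these 4 shares, but within 1 percentage point of WT2.

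Ratios between classes showed the same. The counts of the 7 complex I messengers over mt-Cytb were 1.58, 1.56, 2.72 and 1.64, and over mt-Co1 0.683, 0.685, 1.00 and 0.727 in WT1, WT2, KO1 and KO2. mt-Nd6 over the 12 heavy-strand messengers was 0.0172, 0.0168, 0.0240 and 0.0174. In these 3 ratios both KO libraries lay above WT, and the exact permutation p was 0.333, the smallest possible. The ratio of rRNA to messengers was 0.0804, 0.0643, 0.122 and 0.0678, and that of tRNA to messengers 0.00425, 0.00424, 0.00517 and 0.00416, so that KO2 did not lie above both WT libraries in either (exact permutation p = 0.667 and 1.0). Without KO1 the log2 difference fell from 0.43 to 0.07 for complex I over mt-Cytb and from 0.34 to -0.09 for rRNA over messengers.

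**Figure D4:**
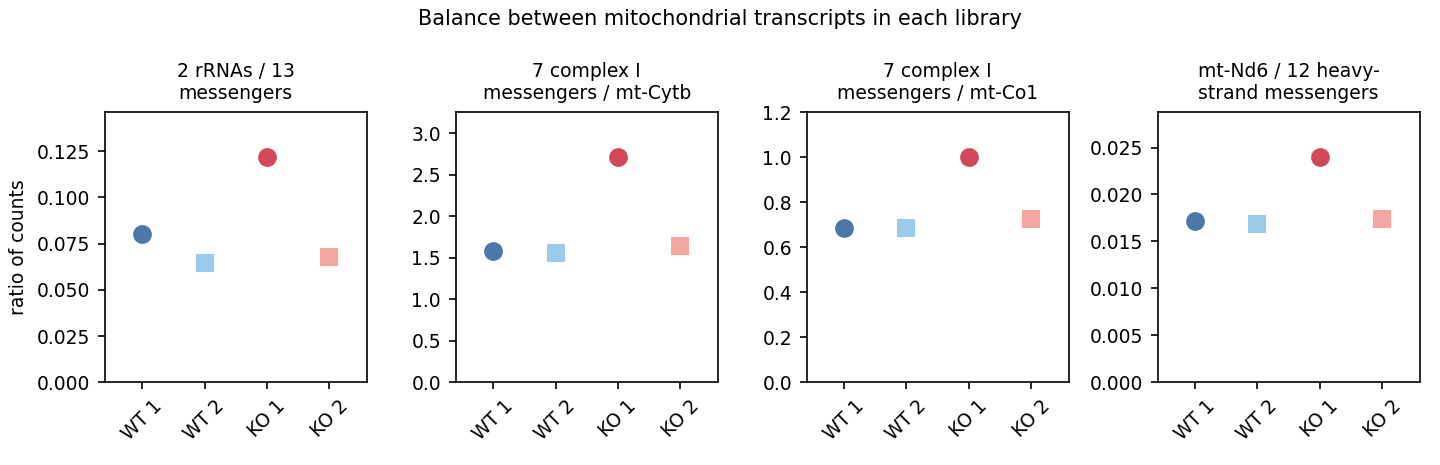
Ratio of counts between classes of mitochondrial transcripts in each library (points, linear axes that start at 0): rRNAs over messengers, complex I messengers over mt-Cytb and over mt-Co1, and mt-Nd6 over the heavy-strand messengers. KO1 is highest in all 4 panels, and KO2 lies near WT, for example at 1.64 beside 1.58 and 1.56 for complex I over mt-Cytb.

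The nuclear subunits of the same complexes had smaller fold changes. All 79 nuclear genes listed for complexes I to V were tested, and their median log2 fold change was 0.18 in the sex-term fit. That fit called 1 of them higher and 0 lower, beside 1.01% and 2.2% of all tested genes. By complex the medians were 0.19 for 37 genes of complex I, 0.15 for 4 of complex II, which has no mitochondrial subunit, 0.19 for 9 of complex III, 0.14 for 11 of complex IV and 0.20 for 18 of complex V. The 79 genes held 0.741%, 0.766%, 0.806% and 0.822% of all counts in WT1, WT2, KO1 and KO2. The mitochondrial messengers thus held 1.66, 1.77, 3.63 and 2.30 times the counts of their nuclear partners. Of the 79, 58 were higher in KO in both pairs, beside 35.5% of all tested genes. Another 8 were lower in both, and the share of all tested genes for that direction was not computed.

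The nuclear gene called was Ndufa13, an accessory subunit of complex I. It rose from 62.3 and 61.6 CPM in WT1 and WT2 to 104 and 84.2 CPM in KO1 and KO2 (edgeR with the sex term, log2 fold change 0.60 ± 0.14 (SE), adjusted p = 0.0425). Among the most expressed partners, Atp5b, the catalytic subunit of ATP synthase, stood at 950, 924, 1030 and 989 CPM. Atp5a1 stood at 599, 613, 896 and 705 CPM, Cox4i1 of complex IV at 235, 249, 363 and 292 CPM, Sdha of complex II at 233, 225, 307 and 259 CPM, and Uqcrc1 of complex III at 134, 132, 161 and 144 CPM. None of these 5 passed in either edgeR fit.

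Nuclear genes that transcribe and mature mitochondrial RNA gave 3 calls in the sex-term fit, all lower in KO, beside 2.2% of all tested genes. Mterf3, a regulator of mitochondrial transcription, was 1 of 10 transcription genes and fell from 58.6 and 54.8 CPM to 26.04 and 40.8 CPM (sex-term fit, log2 fold change -0.79 ± 0.18, SE, edgeR adjusted p = 0.0389). The median of the 10 was -0.28. Tfam, which packages mitochondrial DNA and is needed to start its transcription, stood at 60.7, 64.2, 58.1 and 66.0 CPM, and Polrmt, the mitochondrial RNA polymerase, at 52.8, 45.8, 39.03 and 44.2 CPM; neither passed.

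Of 21 genes for RNA processing, polyadenylation, stability and decay, 2 fell and 0 rose, beside 2.2% and 1.01% of all tested genes. The median of the 21 was 0.06. Pnpt1, the polynucleotide phosphorylase of the mitochondrial RNA degradosome, fell from 48.6 and 44.9 CPM to 21.98 and 33.0 CPM (-0.79 ± 0.18, edgeR adjusted p = 0.0393). Fastk, a kinase-family gene with a mitochondrial form known to be needed for mt-Nd6 messenger levels, fell from 87.5 and 88.2 CPM to 28.8 and 60.4 CPM (-1.07 ± 0.21, adjusted p = 0.0274). Grsf1, an RNA granule protein and the most expressed gene of this list, stood at 63.5, 61.4, 77.8 and 67.8 CPM and did not pass.

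The lists for maintaining mitochondrial DNA and for translation held 1 call. Ssbp1, the mitochondrial single-stranded DNA binding protein, fell from 48.5 and 50.7 CPM to 25.9 and 36.6 CPM (-0.68 ± 0.16, edgeR adjusted p = 0.0417), 1 of 15 genes for replication and nucleotide supply with a median of 0.04. None of 48 large and 29 small mitoribosomal subunit genes, 17 aminoacyl-tRNA synthetases and 12 translation factors was called, with medians of 0.07, -0.03, -0.09 and 0.02. Examples are Mrpl24, at 122, 119, 78.4 and 91.6 CPM, and Tufm, an elongation factor, at 71.7, 73.9, 87.7 and 78.7 CPM. Regulators of mitochondrial biogenesis (8 tested) and genes of mitophagy and outer membrane mass (11 tested) had medians of -0.07 and 0.27 with 0 calls. Of the 11, 10 were higher in KO in both pairs, beside 35.5% of all tested genes, and 0 were lower in both. Of the 8 regulators, 1 was higher and 5 were lower in both pairs. Vdac1, the outer membrane channel, stood at 199, 200, 263 and 220 CPM. In all, the sex-term fit called 1 of 250 tested partner genes higher and 4 lower, beside 1.01% and 2.2% of all tested genes, and 0 passed without a covariate. With library totals in place of TMM scaling, the sex-term fit called 0 of the 250, and the share of all tested genes called there was not computed.

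Other transcripts moved alongside the mitochondrial ones. Cytosolic ribosomal protein genes, short and abundant messengers, had a median log2 fold change of 0.68 in the sex-term fit, with 6 of 31 called higher, beside 1.01% of all tested genes. DESeq2 called 22 of the 31 higher, where 1.85% of its genes were called higher and 2.73% lower. In edgeR without KO1 and without a covariate, the median log2 fold change of the 31 was 0.34. All 31 were higher in both pairs, beside 35.5% of all tested genes. The summed level of the 31 was 11607 and 11587 CPM in WT1 and WT2 and 23002 and 14655 CPM in KO1 and KO2. Neat1, a nuclear-retained noncoding RNA, fell from 207 and 251 CPM to 64.0 and 141 CPM (sex-term fit, log2 fold change -1.26, edgeR adjusted p = 0.0194), and DESeq2 did not call it (adjusted p = 0.229). It was chosen after its value was seen. Of the other nuclear-retained RNAs that were tested, Malat1 stood at 1797, 1295, 1437 and 1164 CPM and Kcnq1ot1 at 19.5, 13.6, 25.5 and 14.1 CPM, and neither passed. KO1 was the extreme library for the ribosomal protein sum and for Neat1, as it was for the mitochondrial shares, but not for Malat1. The part of RNA recovery or library preparation in the mitochondrial values was not tested.

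Markers of other cells summed to less than the DP markers, at levels that differed widely between lists. Summed levels in WT1, WT2, KO1 and KO2 were 10.6, 9.55, 7.36 and 8.23 CPM for 9 macrophage and granulocyte markers, of which S100a8 and Elane were at 0. NK and gamma-delta T cell markers (9 genes, with Gzmb, Ncr1 and Klrd1 at 0) summed to 116, 98.1, 161 and 128 CPM. Of the 4 tested, the sex-term fit called Gzma higher, beside 1.01% of all tested genes. The 8 B cell markers summed to 427 to 489 CPM in WT and 494 CPM in both KO libraries, nearly all of it from Ighm. Of the 4 B cell markers tested, the sex-term fit called Cd79b higher, beside 1.01% of all tested genes. The 7 dendritic cell markers summed to 31.9 to 35.9 CPM in WT and 32.7 to 38.6 CPM in KO. For 9 stromal markers the ranges were 149 to 168 and 153 to 176 CPM. The 9 liver transcripts summed to 365, 86.6, 365 and 4.99 CPM, high in both female libraries. Alb made up most of each female sum, at 255 CPM in WT1 and 291 CPM in KO1. The other 8 transcripts were lower in KO in both pairs, a direction for which no share over all tested genes was computed. Ttr was called lower in the sex-term fit, beside 2.2% of all tested genes. The sum for NK and gamma-delta T cell markers was higher in both KO libraries, as the mitochondrial shares were. All 4 tested members were higher in both pairs, beside 35.5% of all tested genes. The part of these cells in the mitochondrial shares was not tested.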

How the data were processed

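The authors deposited raw counts of paired fragments per gene for 4 libraries, counted by featureCounts, version 1.6.3 per the file headers and 1.6.4 per the submitters' processing notes, over exons of Ensembl 98 on GRCm38. The header's command sets no option for strand, multiple mapping or gene overlap, so fragments shared by copies or overlapping genes were left out. Per the submitters' processing notes, reads passed FastQC, Trim Galore 0.5.0, HISAT2 and DESeq2, and per the labels' protocols poly-T beads selected the RNA and the kit does not mark strand. Library totals were 23215539 (WT1), 27369874 (WT2), 24688653 (KO1) and 21068760 (KO2) counts. The replicates were separate libraries, with a chi-square of 11.3 per degree of freedom between the WT and 51.2 between the KO libraries.

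Symbols and transcript sequences came from GENCODE M21 (55240 of 56239 IDs matched), and coordinates from the deposited table. Counts were filtered with filterByExpr, scaled by TMM (factors 0.919 to 1.04) and tested with edgeR 4.0.16's quasi-likelihood F test in R 4.3.3, KO minus WT, with Benjamini-Hochberg adjustment over 15070 genes and a threshold of 0.05. The sex-term fit adds the replicate number; the labels share that number between genotypes, Xist and Y-linked genes show that it separates the sexes, and the deviations of same-numbered libraries correlated at 0.472, a single value, since with 2 libraries a group both pairs give the same one. The SE printed with an edgeR log2 fold change is the absolute log2 fold change divided by the square root of F. DESeq2 1.42.0 was an alternative. The edgeR step was tested on simulated data. CPM and FPKM were computed from counts, the effective library size and the deposited gene length. Shares used library totals.

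Nuclear copies are annotated transcripts found with blastn 2.17.0 at 90% identity or more over at least 100 bases. Windows were matched exactly on both strands against the annotated transcripts in place of the whole genome, which was not used here, so copies outside annotated transcripts are not covered.

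The members, gene lists and tests were chosen with earlier results of these data known. Named genes are every messenger and rRNA gene, every tested tRNA gene, nuclear copies with 10 or more counts in a library, Chaf1b, and of each nuclear list up to 4 called genes and genes from the 2 most expressed. Marker genes and Neat1 were named after their values were seen. Alternatives were other scalings, no filter, DESeq2, each library left out and other denominators. Some marker lists are not reported here.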

Additional observations from a re-analysis of the deposited data

Results flagged for a closer look

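For the results below the female and male pairs moved in opposite directions. Each pair is 1 library against 1 library, and the difference between the pairs was not tested. mt-Tl1, the leucine tRNA gene that follows mt-Rnr2, was higher in KO1 than in WT1 by 1.33 on the log2 CPM scale, and the male pair gave -0.19. mt-Th, the histidine tRNA gene behind mt-Nd4, gave 1.40 and -0.28. The highest counts behind these values were 111 for mt-Tl1 and 99 for mt-Th, both in KO1. Among the nuclear lists, the median of the genes for mitochondrial DNA replication and nucleotide supply was -0.0895 for KO1 against WT1 and 0.0071 for KO2 against WT2. The small mitoribosomal subunit had -0.138 and 0.0080, and the mitochondrial translation factors -0.0569 and 0.0433.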

How the results depend on the processing

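The count of mitochondrial genes called higher in KO was 0 of 29 in the edgeR test without a covariate and remained 0 with DESeq2 size factors, with library totals, with scaling over nuclear genes, and without either WT library. The replicate block (the sex-term fit) called 11, beside 1.01% of all tested genes called higher, and DESeq2 called 13, beside 1.85% of its genes. Leaving out 1 library gave from 0 to 24 calls, with 12 without KO1 and 24 without KO2; the lone KO library is then assumed to vary like the WT libraries. Without the filter 20 were called, beside 2.41% of all tested genes called higher, and 20 with the replicate block too. With the replicate block and library totals 1 was called, and 10 each with the replicate block and scaling over nuclear genes or DESeq2 size factors. All combinations with the block were chosen after the data were seen, and no share of all tested genes was computed for them. In all of these settings 0 genes were called lower.

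For the nuclear partner genes the counts higher and lower were 0 and 0 without a covariate, 1 and 4 with the replicate block and with DESeq2, 8 and 7 without the filter, and 6 and 8 with the block and no filter. They were 0 and 0 with the block and library totals, where all 5 calls of the sex-term fit were lost, and 1 and 4 with the block and scaling over nuclear genes or DESeq2 size factors. They ranged from 0 and 0 to 52 and 44 with 1 library left out (3 and 6 without KO1, 52 and 44 without KO2). Of all tested genes 15.8% were called higher and 16.5% lower without KO2, 1.09% and 2.22% without KO1, and 2.41% and 3.22% without the filter.

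The log2 fold changes kept their direction for all 29 genes, except without KO1, where mt-Tl1 gave -0.0243 and mt-Th -0.351 (without KO2 they gave 1.17 and 1.495). The log2 share of all mitochondrial counts, 0.90, ran from 0.55 to 1.25 with 1 library left out. Without KO1 the log2 ratio of rRNA to messengers turned from 0.34 to -0.0856 (range -0.0856 to 0.763), and that of tRNA to messengers from 0.127 to -0.0305 (range -0.0305 to 0.285). The ratio of mt-Rnr1 to mt-Rnr2, -0.0010, ranged from -0.0143 to 0.0123 and was 0.0109 without WT2. The cause of these changes was not tested. Depth limits the tRNA genes most: 8 had at most 9 counts.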
